A study of Caenorhabditis elegans with 6 samples.

Results

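The glutathione S-transferase genes of Caenorhabditis elegans were taken as every gene whose symbol is gst, gsto or gstk followed by a number, found through the transcript name that the array gives for each probe. A reference table of worm genes held 49 such genes, and all 49 had a probe on the array. They were 49 of the 19448 gene or transcript names on the array, and were read by 50 of its 20401 gene probes, because gsto-3 had a second probe. Of these 50 probes, 43 could be tested, each for a different gene.

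Wild-type N2 worms were compared with worms that carry the n4759 allele of the microRNA gene mir-243, both as young adults grown at 20 °C. Whole-animal total RNA, 500 ng of each, was copied from random primers, and mutant and wild-type cDNA were hybridised together to a two-colour Agilent whole-genome array. There were 3 biological replicates, each measured once in each dye orientation, which gave 6 arrays and n = 3. No probe resolved to mir-243 itself, so the mutation was not checked on these arrays. Both genotypes are whole animals, so fewer cells of a type and less RNA per cell cannot be told apart.

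Glutathione S-transferases join the tripeptide glutathione to reactive, electrophilic molecules, which makes such molecules soluble and ready for export from the cell. Nematodes have a large set of them, most of it related to the sigma class of other animals, and several of its members are expressed in the intestine. Several are driven by SKN-1, the worm counterpart of the Nrf stress factors, and gst-4 is the reporter gene most often used for SKN-1 activity. The omega enzymes, named gsto in worms, use a cysteine in place of the usual tyrosine or serine and can reduce dehydroascorbate. The kappa enzymes, named gstk, are found in mitochondria and peroxisomes.

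Each array held 42964 gene spots and 1417 control spots. By the scanner's mark, gene spots stood well above background in 74.8% to 80.2% of cases for Cy3 and in 76.3% to 83.0% for Cy5. Of the 16272 probes tested across the array, 2647 were called, that is, they differed at least 2-fold between genotypes with an adjusted p under 0.05 in limma, a linear-model test whose p-values were adjusted over all tested probes (16.3% of the probes tested), and 83.5% passed the adjusted p alone. Marker genes of other tissues and stages differed strongly between the genotypes. All 5 tested probes of the vitellogenin list were called lower, with a median log2 ratio of -3.17, as were all 5 oocyte markers, with a median of -2.03, and 2 of 5 germ line markers, with a median of -0.93. All 9 probes of genes expressed by the epidermis during molting were called higher, with a median of 3.34, as were 4 of 7 epidermis markers, with a median of 2.65, and 2 of 6 neuron markers, with a median of 0.69. General intestine markers had a median of 0.27 and 1 of 8 was called, the intestinal esterase ges-1, which was lower. Body wall muscle markers had a median of 0.21, with none of 4 called, and under the processing alternatives that median ran from -0.02 to 0.26. The signal summed over the 5 of 7 vitellogenin probes with a value in every replicate was 95800 to 112000 in N2 and 8590 to 9540 in the mutant. For oocyte markers it was 173000 to 196000 in N2 and 41700 to 43600 in the mutant, and for germ line markers 9800 to 14300 and 5030 to 7510. For molting genes it was 6080 to 7360 in N2 and 62600 to 76600 in the mutant, for the epidermis 22900 to 23100 and 170000 to 185000, and for neurons 16900 to 18000 and 27000 to 28900. Intestine markers summed to 31400 to 33600 in N2 and 42600 to 44200 in the mutant, and body wall muscle markers to 61000 to 63800 and 64700 to 74300. Such sums weigh the brightest probes most, and in N2 vit-1 alone gave 60650 to 63740 of the vitellogenin sum. Every probe of these lists was well above background on at least 1 array in each genotype. The part of these tissue and stage differences in the values of the glutathione S-transferase genes was not tested.

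Ratios are given as log2 of mutant over wild type, after background correction with an offset of 50. A ratio of 1 is a doubling, and the offset pulls the ratios of dim probes toward 0. A value after ± is the SD of the 3 replicates. In the glutathione S-transferase family, 4 of 43 tested genes were called, which is 9.30% against 16.3% of all tested probes. One of them, gst-24, was called higher (2.33% of the family against 9.18% of all probes), and 3, gst-7, gst-8 and gst-14, were called lower (6.98% against 7.09%). The lower count moved with the processing, to 9 with the deposited ratios and to 1 with no background correction. With the adjusted p alone, 36 of 43 genes passed, which is 83.7% against 83.5% of all tested probes. Of these, 14 were higher in the mutant, where the share over the array was 42.3%, and 22 were lower, where it was 41.3%. No family member reached a 4-fold difference as processed here, and 24 of 43 lay within 0.5 log2 units of 0. With the scanner software's processed signals or the deposited ratios, gst-34 at -2.49, gst-16 at -2.27 and gst-30 at -2.02 passed 4-fold. In the mutant these were well above background on only 2, 3 and 4 of 6 arrays, so their fold is uncertain.

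The middle of the family lay slightly lower in the mutant than the middle of the array. The median log2 ratio of the 43 genes was -0.14, with -0.23, -0.09 and -0.14 in replicates 1, 2 and 3, and the median over all tested probes was -0.01. The quartiles of the family were -0.64 and 0.25, and those of all tested probes were -0.38 and 0.42. The median size of a ratio, whatever its direction, was 0.39 in the family and 0.40 over the array, and this difference was not tested. On single arrays the family median ran from -0.36 to -0.13 with the mutant in Cy5 and from -0.15 to -0.07 with the mutant in Cy3.

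**Figure D1:**
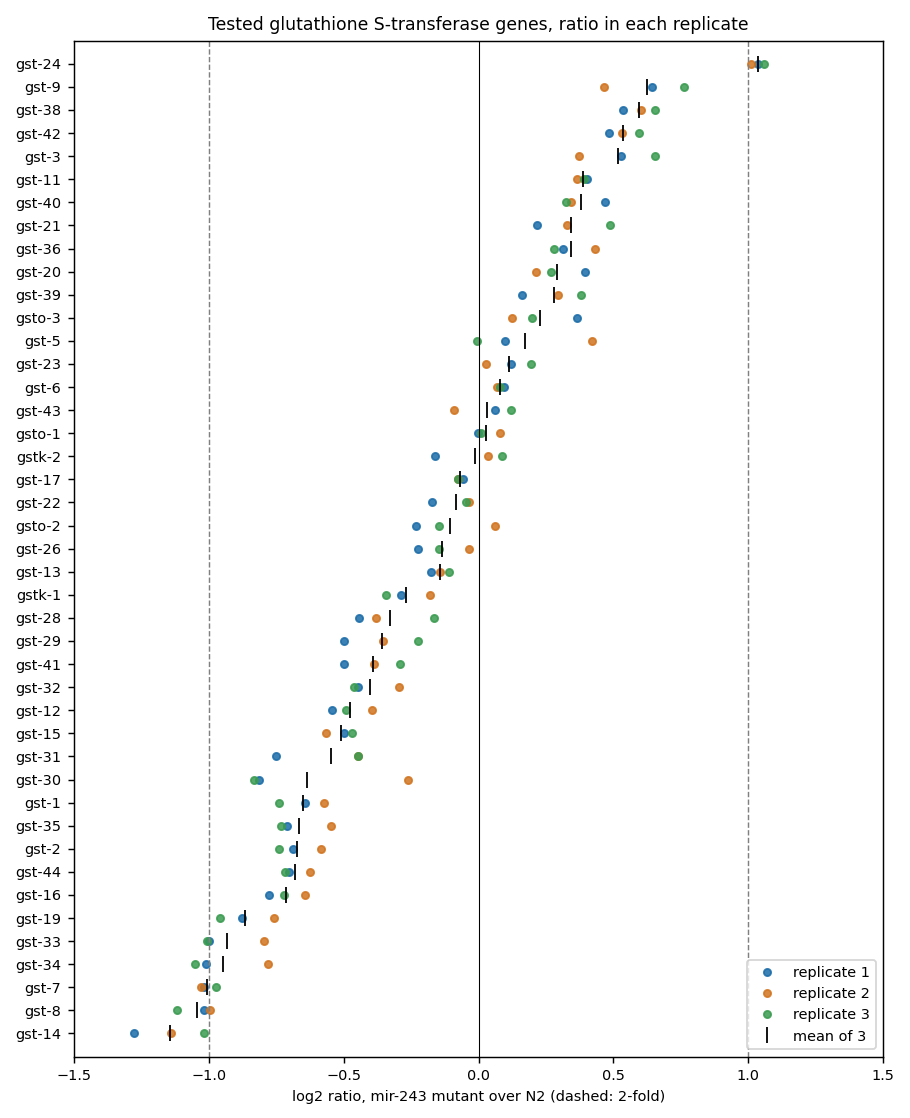
Log2 ratio of mir-243 mutant over N2 (x axis) for each of the 43 tested glutathione S-transferase genes (y axis), with 1 point per replicate, a bar at the mean of 3 replicates and dashed lines at 2-fold. Only gst-24 lies past the line on the higher side, and gst-7, gst-8 and gst-14 lie past it on the lower side.

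**Figure D2:**
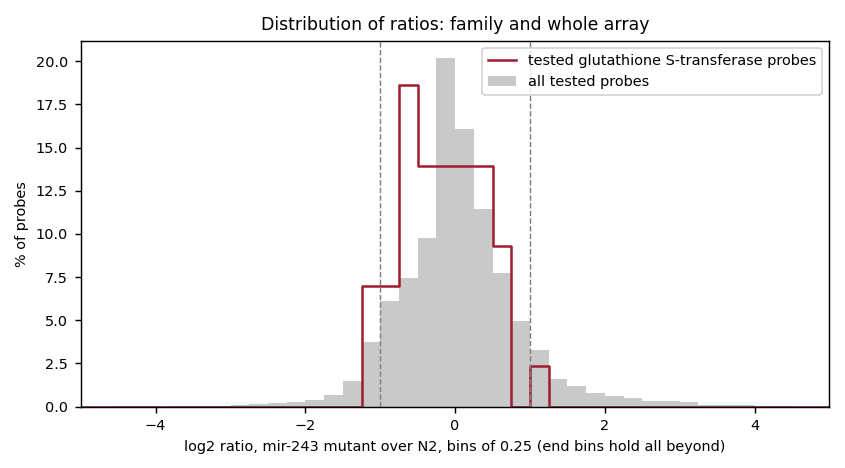
Share of probes in percent (y axis) by log2 ratio of mutant over N2 in bins of 0.25 (x axis), for all 16272 tested probes (grey bars) and the 43 tested glutathione S-transferase probes (line). The family's ratios run from -1.15 to 1.04, while the array's reach the bins centred on -4.375 and 4.375.

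The gene called higher was gst-24, one of the worm transferases that act on aldehydes formed when lipids are oxidised. Its normalised signal in N2 was 2269, 2283 and 2297 in replicates 1, 2 and 3, and in the mutant 4657, 4602 and 4787. Every mutant value lay above every wild-type value, and the 3 replicates were nearly equal within each genotype. The log2 ratio was 1.04 ± 0.0241 (2.05-fold, adjusted p = 5.21e-11, limma), and on single arrays it ran from 0.88 to 1.15. The call ended under several alternatives. The ratio was 0.72 when each array was centred on its median, 0.90 from the scanner software's own processed signals, and 0.93 on the arrays with the mutant in Cy5.

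Among the genes that fell was gst-7, a gene that is known to depend on SKN-1. Its signal was 27610, 26890 and 24920 in N2 and 13630, 13180 and 12700 in the mutant. The groups did not overlap, and no spot was saturated. The log2 ratio was -1.01 ± 0.0299 (2.01-fold lower, adjusted p = 7.22e-11, limma), right at the 2-fold line. It came to -0.96 on the arrays with the mutant in Cy3 and to -0.996 without replicate 2, both just under 2-fold.

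The gene next to it, gst-8, encodes another aldehyde-conjugating enzyme. Its signal was 856.2, 667 and 823.8 in N2 and 423.1, 334.7 and 379.1 in the mutant, so replicate 2 was the dimmest in both genotypes and the groups did not overlap. The log2 ratio was -1.04 ± 0.0668 (2.06-fold lower, adjusted p = 8.25e-11, limma). It fell just short of 2-fold under 4 alternatives, at -0.92 with median centring, -0.96 with no background correction, -0.98 with the background model fitted on all spots, and -0.96 on the arrays with the mutant in Cy3.

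With this processing, the largest fall in the family was that of gst-14. Its signal was 527.3, 542.9 and 475.2 in N2 and 217.3, 246 and 234.7 in the mutant, again without overlap. The replicate ratios were -1.28, -1.14 and -1.02, with a mean of -1.15 ± 0.13 (2.21-fold lower, adjusted p = 1.36e-10, limma). It was -0.99 both with median centring and with no background correction. Each of the 4 called genes kept its sign on every one of the 6 arrays, and gst-24 and gst-14 passed 2-fold in every replicate.

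**Figure D3:**
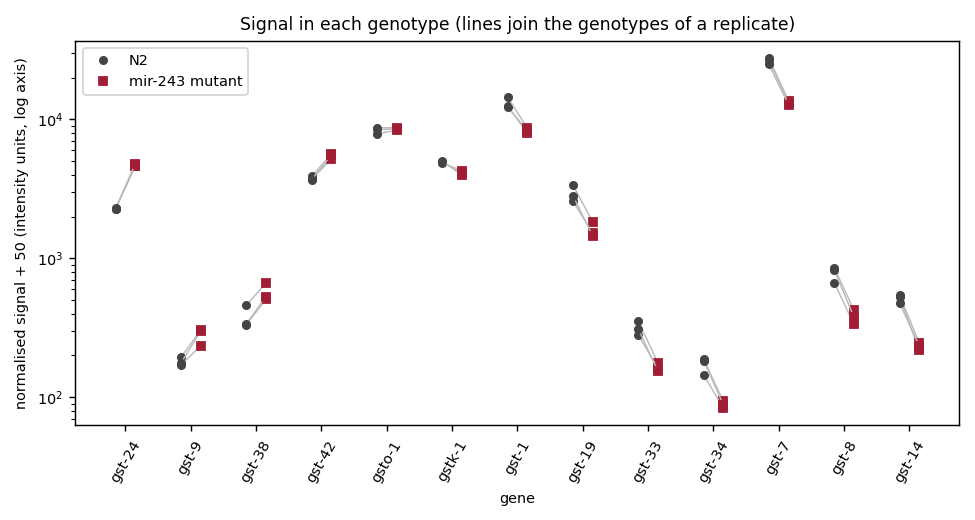
Normalised signal plus the offset of 50 (y axis, log scale, intensity units) in N2 (circles) and the mir-243 mutant (squares) for the called genes and others described in the text (x axis), with a line that joins the N2 and the mutant value of each of the 3 replicates. Signals are comparable between genotypes of a gene and not between genes, and for gst-24 all 3 mutant values lie above all 3 N2 values.

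Just short of the 2-fold line lay gst-34, gst-33 and gst-19, all lower in the mutant. The signal of gst-34 was 188.2, 144.4 and 183.4 in N2 and 93.44, 83.98 and 88.53 in the mutant, where only 2 of 6 arrays had it well above background, and its ratio was -0.95 ± 0.145 (1.93-fold). That of gst-33 was 352.9, 280.3 and 310 in N2 and 176.6, 161.6 and 154.1 in the mutant, with a ratio of -0.93 ± 0.121 (1.91-fold). Both were closest to 0 in replicate 2, at -0.78 for gst-34 and -0.79 for gst-33, and without that replicate they came to -1.03 and -1.004. The signal of gst-19 was 3371, 2575 and 2828 in N2 and 1835, 1520 and 1454 in the mutant, with a ratio of -0.87 ± 0.1 (1.82-fold).

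The other genes with a difference between 1.5-fold and 2-fold and an adjusted p under 0.05 were 6 lower and 2 higher. Among the lower was gst-1, which is related to the pi class of vertebrates and has been linked to the survival of dopamine neurons exposed to manganese. Its signal was 12480, 12360 and 14490 in N2 and 7988, 8319 and 8672 in the mutant, without overlap. The ratio was -0.65 ± 0.085 (1.57-fold lower, adjusted p = 1.5e-08, limma), and it was lower on all 6 arrays. The others were gst-35 at -0.66 ± 0.101, gst-2 at -0.67 ± 0.0788, gst-44 at -0.68 ± 0.0501, gst-16 at -0.71 ± 0.0677 and gst-30 at -0.64 ± 0.324. The last had the largest SD in the family, with -0.82, -0.26 and -0.83 in replicates 1, 2 and 3. It was well above background in the mutant on 4 of 6 arrays, and gst-16 on 3 of 6.

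The 2 higher genes of this size were gst-38 and gst-9. The first, gst-38, is a known SKN-1-dependent gene, like gst-7, and its signal was 458.4, 333.5 and 337.1 in N2 and 664.1, 506.2 and 530.4 in the mutant. The groups did not overlap, and the ratio was 0.60 ± 0.0598 (1.51-fold, adjusted p = 2.3e-08, limma), higher on all 6 arrays. So gst-7 and gst-38, 2 of several members driven by SKN-1, lay on opposite sides of 0. Whether SKN-1 activity differed between the genotypes was not tested. For gst-9 the signal was 194, 170.2 and 176.3 in N2 and 303, 234.9 and 298.8 in the mutant, and the ratio was 0.62 ± 0.149.

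Under 1.5-fold, 11 genes were higher with an adjusted p under 0.05, from 0.11 for gst-23 to 0.54 for gst-42. The latter is the worm maleylacetoacetate isomerase of the zeta class, an enzyme of tyrosine breakdown. Its signal was 3706, 3885 and 3679 in N2 and 5178, 5623 and 5554 in the mutant, without overlap, and the ratio was 0.54 ± 0.0561 (1.45-fold, adjusted p = 6.67e-08, limma). The other higher genes were gst-3, gst-11, gst-40, gst-21, gst-36, gst-20, gst-39, gsto-3 and gst-5, with ratios between 0.17 and 0.52. Of these, gst-5, which also acts on lipid aldehydes, was higher on only 4 of 6 arrays, with replicate ratios of 0.10, 0.42 and -0.01. With median centring gst-20, gst-39 and gst-5 changed sign.

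On the lower side, 10 genes were under 1.5-fold with an adjusted p under 0.05, from -0.55 for gst-31 to -0.14 for gst-26. One was gstk-1, a kappa-class gene, with a signal of 4964, 4851 and 5023 in N2 and 4068, 4279 and 3960 in the mutant. Its genotypes did not overlap, and the ratio was -0.27 ± 0.0822 (adjusted p = 0.000102, limma), lower on all 6 arrays. The others were gst-13, gst-28, gst-29, gst-41, gst-32, gst-12 and gst-15, with ratios between -0.51 and -0.14. Of these, gst-13 was lower on the 3 arrays with the mutant in Cy3 and near 0 with the mutant in Cy5, where its mean was 0.0074.

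The remaining 7 tested genes did not pass the adjusted p, and the 95% intervals of their ratios were narrow. The omega-class gsto-1 had a signal of 8725, 7895 and 8487 in N2 and 8711, 8348 and 8548 in the mutant, with a ratio of 0.03 and an interval from -0.06 to 0.12. The omega-class gsto-2 had a ratio of -0.11 with an interval from -0.22 to 0.01, and the kappa-class gstk-2 had a ratio of -0.01 with an interval from -0.13 to 0.10. As processed here, the intervals of these 3 genes lay within 1.5-fold. The same was so for gst-6 at 0.08 (-0.01 to 0.17), gst-43 at 0.03 (-0.08 to 0.14), gst-17 at -0.07 (-0.16 to 0.02) and gst-22 at -0.08 (-0.18 to 0.01). The sign of 6 of these 7 changed under at least 1 alternative, gst-17 being the one that kept it. The intervals hold only the spread of replicates under this processing, and some alternatives fell outside them. Ratios ran from -0.33 to 0.12 for gsto-2, from -0.28 to -0.02 for gst-17 and from -0.21 to 0.13 for gst-6. For a dim gene such as gst-17 the offset also pulls the ratio toward 0.

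By class, the 38 tested gst genes had a median ratio of -0.24 and held all 4 calls. The 3 tested gsto genes had a median of 0.03 and the 2 gstk genes one of -0.14, with no call in either. The classes were too small for a test of their difference, which was not made.

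Of the 7 probes that were not tested, 4 were too dim, those of gst-18, gst-25 and gst-37 and the second probe of gsto-3, and were well above background on at most 1 of 6 arrays in either genotype. The other 3, for gst-4, gst-10 and gst-27, were bright on all 6 arrays in both genotypes but lacked a replicate value, because their spots were marked as outliers on whole arrays. For gst-4, 5 of 12 spots were marked. With those spots kept, its replicate ratios were -0.09, -0.23 and -0.07, with a mean of -0.13 ± 0.0896 and an adjusted p of 0.0187 in limma, and it was lower on 4 of 6 arrays. So the SKN-1 reporter gene lay slightly lower in the mutant when measured this way. In the deposited ratios its mean was -0.32.

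For gst-10, an aldehyde-conjugating transferase that lowers the load of lipid peroxidation products, 6 of 12 spots were marked. With the marked spots kept, its ratio was 0.07 ± 0.0928 (adjusted p = 0.178, limma), and in the deposited ratios it was -0.09, so its sign was not settled. For gst-27, with 4 of 12 spots marked, the ratio with all spots was -0.13 ± 0.113 (adjusted p = 0.0306, limma). None of the 3 came near 2-fold.

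Many worm transferase genes lie side by side, and 4 runs of 3 or more family members were found in which at most 2 other protein-coding genes stood between neighbours. These runs held 22 of the tested genes and all 4 calls, and the 21 tested genes outside them held none. Over the array 16.3% of tested probes were called, and the split between genes inside and outside runs was not tested. Neighbours did not move as 1 block. In the run gst-6, gst-7, gst-8, gst-9 the ratios in genome order were 0.08, -1.01, -1.04 and 0.62, so the pair that fell stood between a gene near 0 and one that was higher. In the run that begins with gst-20 the ratios were 0.29 for gst-20, 1.04 for gst-24, -0.51 for gst-15, -1.15 for gst-14, -0.48 for gst-12, -0.71 for gst-16, -0.87 for gst-19 and -0.07 for gst-17. There the gene called higher, gst-24, and the gene with the largest fall, gst-14, had only gst-15 of the family between them.

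The third run was lower almost throughout. In genome order gst-26 was at -0.14, gst-28 at -0.33, gst-29 at -0.36, gst-39 at 0.28, gst-31 at -0.55, gst-32 at -0.40, gst-34 at -0.95 and gst-35 at -0.66. So 7 of its 8 tested genes were lower with an adjusted p under 0.05, where the share over the array was 41.3%. None of the 8 reached 2-fold, and gst-39 in the middle was higher. In the fourth run gst-3 was at 0.52 and gst-2 at -0.67, and these neighbours lay on opposite sides of 0, with the untested gst-4 at the end of the run. Neighbouring transferases are often close paralogues, and whether their transcripts bind each other's probes was not checked. In the reference table gst-17 and gst-18 overlap each other, gst-9 overlaps the sperm protein gene msp-33 and gst-40 overlaps the collagen gene col-103. Other overlaps with a coding gene are gst-5 with nos-1, gst-22 with F21H7.12, gst-25 with spe-15 and gst-32 with Y53F4B.36. The rest are gst-36 with scav-5, gst-44 with srd-63, gsto-1 with kle-2 and gstk-2 with elo-3.

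**Figure D4:**
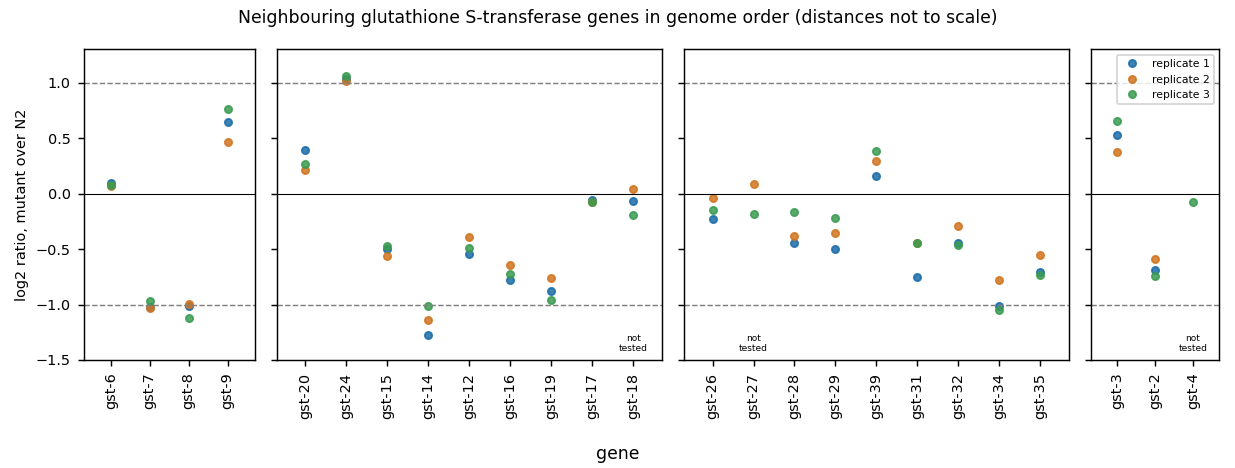
Log2 ratio of mutant over N2 (y axis) for neighbouring glutathione S-transferase genes in genome order (x axis, distances not to scale), in 4 runs, with 1 point per replicate that has a value, dashed lines at 2-fold and untested genes marked. In the first run gst-7 and gst-8 lie near -1 while gst-6 and gst-9 lie above 0.

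Replicates ordered the family alike. Across the 43 genes, Pearson's r between pairs of replicates was 0.954 to 0.975 and Spearman's rho 0.950 to 0.979, a description across genes measured on the same arrays. The median SD of a gene's 3 replicate ratios was 0.0922 in the family and 0.0683 over all tested probes. Of the 43 genes, 33 had the same sign on all 6 arrays, a count that was not made for all tested probes.

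Genes that make, recycle or use glutathione and thioredoxin differed by less than 2-fold as processed here. The list of 21 genes for making, recycling and using glutathione and thioredoxin had 20 probes for 19 genes, all tested. Of these, 4 were higher and 11 lower with an adjusted p under 0.05, where the shares over the array were 42.3% and 41.3%. None was called, against 16.3% of all tested probes, and the median ratio was -0.13. The gene of the rate-limiting step of glutathione synthesis, gcs-1, had a signal of 1675, 1681 and 1661 in N2 and 1646, 1619 and 1587 in the mutant, with a ratio of -0.05 ± 0.0207 (adjusted p = 0.299, limma). Glutathione synthetase, gss-1, was at -0.14 ± 0.102 (adjusted p = 0.0178, limma), and glutathione reductase, gsr-1, at -0.09 ± 0.0922 (adjusted p = 0.0856, limma). The extremes of the list were the mitochondrial thioredoxin reductase trxr-2 at -0.55 ± 0.087 and the mitochondrial thioredoxin trx-2 at 0.18 ± 0.0851.

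The genes around SKN-1 itself split in direction, as did probes over the array. Of 11 tested probes for 10 genes, 6 were higher and 5 lower with an adjusted p under 0.05. The shares over the array were 42.3% and 41.3%. None of the 11 was called, against 16.3% of all tested probes, and the median was 0.11. The skn-1 gene was slightly lower on both of its probes, at -0.23 and -0.27. The repressor that marks SKN-1 for breakdown, wdr-23, was at 0.11 ± 0.0514 (adjusted p = 0.0309, limma). Transcripts of the p38 kinase cascade that activates SKN-1 were higher, all under 2-fold. The ratios were 0.33 ± 0.0547 for nsy-1, 0.55 ± 0.0314 for sek-1 and 0.29 ± 0.0412 for pmk-1. The highest of the list was the GATA factor elt-3 at 0.75 ± 0.0776, which is itself a member of the epidermis marker list. The lowest was brap-2 at -0.39 ± 0.0921. Of the remaining genes, xrep-4 at -0.12 and gsk-3 at -0.10 were lower, and mdt-15 at 0.39 was higher.

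The third list, of multidrug resistance proteins, holds the ATP-driven pumps of the family that exports glutathione conjugates. Of 7 tested genes out of 8, mrp-2 was called higher and mrp-4 and mrp-7 lower. The shares called over the array were 9.18% higher and 7.09% lower. The signal of mrp-4 was 1160, 1217 and 1163 in N2 and 244.7, 270.7 and 221.6 in the mutant, a ratio of -2.27 ± 0.113 (4.82-fold lower, adjusted p = 1.15e-13, limma). That of mrp-7 was 531, 543.3 and 542.8 in N2 and 260.4, 270.1 and 231.9 in the mutant, a ratio of -1.09 ± 0.121 (adjusted p = 1.79e-10, limma). The call of mrp-7 ended at -0.92 with median centring, -0.96 with no background correction and -0.98 with the background model fitted on all spots. The signal of mrp-2 was 652.8, 627.6 and 719.6 in N2 and 1459, 1376 and 1506 in the mutant, a ratio of 1.12 ± 0.0485 (adjusted p = 3.12e-11, limma). The genotypes did not overlap for any of the 3. The heme exporter mrp-5 was at 0.26, mrp-8 at -0.31, and mrp-3 and mrp-6 did not pass the adjusted p. The median of the 7 genes was -0.07, and its sign changed with the processing.

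**Figure D5:**
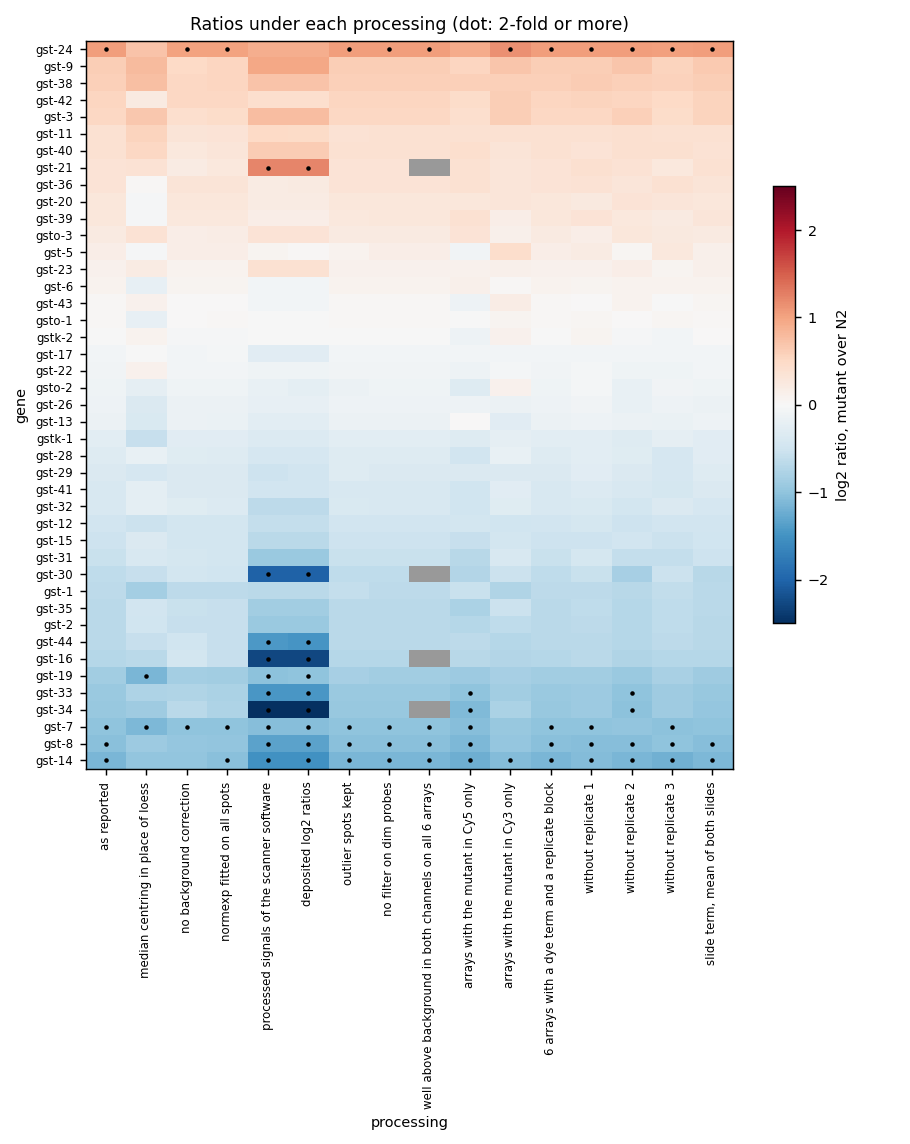
Log2 ratio of mutant over N2 (colour) for each tested glutathione S-transferase gene (rows) as reported and under each of 15 processing alternatives (columns), with a dot where the difference is 2-fold or more. The ratios of gst-30, gst-16 and gst-34 pass 4-fold in the columns of the scanner software's processed signals and of the deposited ratios, and are under 2-fold as reported. Their mutant signal was well above background on 4, 3 and 2 of 6 arrays.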

How the data were processed

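Per the file headers, the authors read the arrays with Feature Extraction 10.5.1.1 by Agilent (the labels name 8.5.1.1). The deposited columns used were the median spot intensity and its local background intensity, the processed intensity and log10 ratio made by the scanner software, and quality marks. A log2 ratio per probe, Cy5 to Cy3, was deposited as well. On each array 88.0% to 90.8% of these lay within 0.001 of the scanner's ratio on the log2 scale, and the sign was not turned on swapped arrays. The probes' genome build was not given in the sources used here.

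For background, the normexp method of limma 3.58.1 was run with offset 50 under R 4.3.3 (data.table package, version 1.17.8), fitted on spots without outlier marks. Control spots were left out, loess was applied to the ratios within each array, marked spots were set to missing, spots of a probe were averaged, and ratios were turned to mutant over wild type. Both dye orientations of a replicate were averaged. Signals of each genotype were scaled between arrays by Aquantile. Testing needed a signal well above background on at least 4 of 6 arrays in at least 1 genotype, which 16812 of 20401 gene probes had, and a value in all 3 replicates, which left 16272. Two-sided moderated tests of the ratio against 0 (lmFit, eBayes) were adjusted by Benjamini-Hochberg over all tested probes, and a probe was called at an adjusted p under 0.05 and at least 2-fold, the fold of the study's methods. An exact sign-flip permutation test of 3 values cannot go below p = 0.25, so it decided nothing. On simulated data with 200 changed probes of 16272, 200 were recovered with 0 false calls. Far more probes, 2647, were called on the arrays, so the simulation gives no error rate for them.

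Names came from the files and from RefSeq genes on assembly WBcel235, used for names and neighbours only, and 19057 probes matched. The members and gene lists were chosen with earlier results of these data known. The called genes, those beside the 2-fold line, those that changed sign or call and 9 of textbook interest were to be named. Genes of the other lists were named after their values were seen. The alternatives were other background corrections, normalisations, filters and signal columns, each dye orientation, a fit of 6 arrays with a replicate block, and each replicate left out. A slide term was added after the data were seen, because replicates 1 and 2 shared a slide. The number of arrays limits the precision.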

Additional observations from a re-analysis of the deposited data

Results flagged for a closer look

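In 1 of 44 sets of 6 array values that were checked for a value far from the others, such a value was found, and chance marks about 1 in 20 such sets. It was gst-12 at -0.31 on the replicate 2 array with the mutant in Cy5, where the other 5 arrays gave -0.56 to -0.48. The gene was lower on all 6 arrays.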

How the results depend on the processing

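Of the 43 tested genes, 22 kept direction and call under all 15 alternatives, 10 changed sign under at least 1, and 11 crossed the line for a call under at least 1. The number called higher was 0 with median centring and 0 with the mutant in Cy5 only. The number called lower was 1 with no background correction, 9 with the deposited ratios and 9 with the processed signals, 5 with the mutant in Cy5 only and 1 with the mutant in Cy3 only, and 3 to 4 when 1 replicate was left out. Over the array, 26.7% and 26.9% of probes were called with the processed and the deposited values, and 56.4% of calls were higher as reported against 48.0% with median centring.

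With either the processed signals or the deposited ratios, gst-30 (-2.02), gst-16 (-2.27), gst-34 (-2.49), gst-33 (-1.46), gst-44 (-1.44 and -1.47) and gst-19 (-1.02 and -1.01) were called lower, gst-21 (1.23) was called higher and gst-24 was not called. The cause was not tested. With median centring gst-19 was at -1.15. With the mutant in Cy5 only, gst-33 (-1.004) and gst-34 (-1.10) were called lower. With the slide term gst-7 was at -0.998.

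The sign changed with median centring for gst-20 (-0.021), gst-39 (-0.030), gst-5 (-0.026), gst-6 (-0.21), gsto-1 (-0.20), gstk-2 (0.094) and gst-22 (0.10). It changed with the deposited ratios and the processed signals alike for gst-6 (-0.062), gst-43 (-0.065) and gsto-1 (-0.010). It changed with the mutant in Cy5 only for gst-5 (-0.092), gst-43 (-0.13), gsto-1 (-0.0042) and gst-13 (0.0074), and with the mutant in Cy3 only for gstk-2 (0.10) and gsto-2 (0.12). With 1 replicate left out, gstk-2 ran from -0.063 to 0.060 (positive without replicate 1) and gst-43 from -0.014 to 0.091 (negative without replicate 3), and gstk-2 was at 0.011 with the slide term.

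The family median was -0.22 with median centring, -0.25 with the deposited ratios and -0.27 with the processed signals. The median of the glutathione supply list was -0.12 with the background fitted on all spots, -0.23 with either the processed signals or the deposited ratios, -0.17 with the mutant in Cy5 only, -0.11 with the mutant in Cy3 only and -0.15 to -0.11 when 1 replicate was left out, and 8 of its probes had an adjusted p under 0.05 with the mutant in Cy3 only against 15 as reported. The SKN-1 list had medians of 0.018, 0.0088, 0.039 and 0.18 with the processed signals, the deposited ratios, the mutant in Cy5 only and the mutant in Cy3 only.

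The conjugate export list had 1 probe called lower, in place of 2, because mrp-7 was under 2-fold, with median centring, with no background correction and with the background fitted on all spots. Its median was 0.0069 with median centring, 0.019 with outlier spots kept, 0.024 with the mutant in Cy3 only, 0.042 without replicate 2, -0.057 with no background correction, -0.058 with the background fitted on all spots, -0.11 with the processed signals, -0.012 with the deposited ratios, -0.11 with the mutant in Cy5 only, and -0.075 to 0.042 when 1 replicate was left out.

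With all 6 arrays, a dye term and a replicate block, 1 gene was called higher and 3 lower, and the block changed no call among the 43 genes. Ratios are on the scale of signal plus 50, which pulls the ratios of dim genes such as gst-34 and gst-16 toward 0. In the mutant these were well above background on only 2 and 3 of 6 arrays, so the size of their change is uncertain.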

Other observations

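Replicate 2 gave the smallest ratios in the family. Among the 19 tested genes with a log2 ratio at least 0.5 from 0, replicate 2 was the one closest to 0 for 14, replicate 1 for 2 and replicate 3 for 3. The slope of a replicate's ratios on the mean of the 3 was 1.04, 0.914 and 1.05 for the family in replicates 1, 2 and 3, and 1.01, 0.984 and 1.01 over all tested probes.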
